A study of Felis catus with 23 samples.

Results

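The miR-30 family was followed through its 5p arms in cat serum. The members were the array names hsa-miR-30a-5p, hsa-miR-30b-5p, hsa-miR-30c-5p, hsa-miR-30d-5p and hsa-miR-30e-5p, written without the prefix from here on. The members were taken by name, and the choice was made with earlier results of these data known. They were 5 of 2026 miRNA names and had 11 of the 4944 miRNA probes. Serum came from 11 cats with hypertrophic cardiomyopathy (HCM), in which the wall of the heart is thickened, and from 12 healthy cats, with 1 array per cat. Breed, age, sex and treatment of the cats are not given in the sources used here. Total RNA of clotted blood serum was labelled with Cy3 and hybridised to a 1-colour Agilent array designed for human miRNAs, so each name is the human name of a probe and no probe was matched here to a cat sequence.

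miRNAs of this family share the same seed, the stretch near the 5′ end that pairs with target mRNAs, and are made from hairpins spread over several clusters. miR-30a lies in a cluster with a copy of miR-30c, miR-30e in a cluster with the other copy of miR-30c, and miR-30b lies beside miR-30d. In the heart the family is abundant in muscle cells and is known for repressing connective tissue growth factor (CTGF), a driver of matrix deposition, together with miR-133. In serum a miRNA may come from blood cells, vessel wall or any other tissue. More cells that release a miRNA and more release per cell cannot be told apart in such samples.

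Of the 3 slides, slide 1 carried 3 HCM and 4 healthy arrays, and slides 2 and 3 carried 4 of each group. HCM arrays were in row 1 of every slide and healthy arrays in row 2, so that row and group cannot be told apart. The 75th percentile intensity of an array over its scaling probes lay between 90.5 and 699, an array detected between 323 and 615 names, and 0 spots were saturated. Among blood markers, miR-451a and miR-486-5p were detected on all 23 arrays and miR-16-5p on 3. Of 7 muscle names, 1 was tested and the other 6 were detected on at most 3 arrays.

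The family split by detection. Detection of a probe required that the scanner software called 50% or more of its spots on that array well above background. miR-30a-5p, miR-30d-5p and miR-30e-5p were detected on 23 of 23 arrays with each of their probes, and every spot that was used on these probes was well above background (100%). miR-30b-5p and miR-30c-5p were detected on 0 of 23 arrays with any of their 5 probes. Over these probes 1 of 1342 spots was well above background.

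The signals of the undetected members overlapped the negative control means of the arrays. Their 115 probe means ran from -1.35 to 3.89 intensity units with a median of -0.47, and 93 of them (80.9%) were below 0. The negative control means of the arrays ran from -0.42 to 1.75 with a median of 0.46. Outlier spots were kept in the control means but left out of the probe means, so which was lower is not read from these values. The highest value was that of miR-30c-5p in HCM replicate 10, at 3.89, and the highest of miR-30b-5p was in healthy replicate 16, at 1.82. Both members were thus not well above background in either group, and no fold is given for them. Signals of different probes were not compared as amounts, since probes differ in how well they bind.

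**Figure D1:**
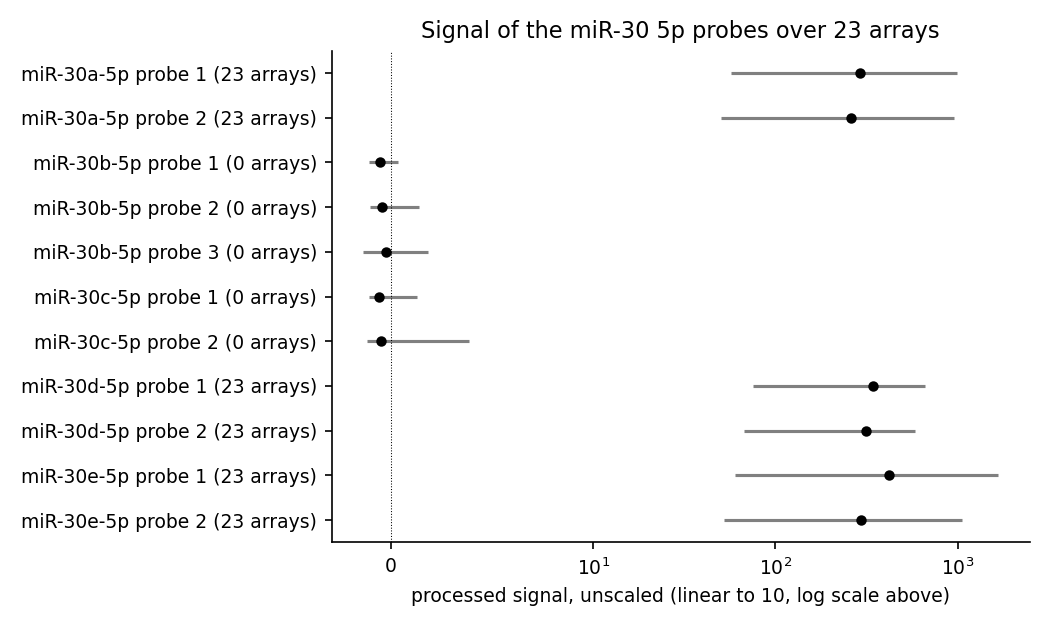
Unscaled processed signal (horizontal axis, linear up to 10 and logarithmic above) of the 11 probes for the miR-30 5p names (vertical axis, with the number of detecting arrays). Lines run from the lowest to the highest of 23 arrays and dots are medians. The 6 probes of miR-30a-5p, miR-30d-5p and miR-30e-5p lie above 50.5 on every array, and the 5 probes of miR-30b-5p and miR-30c-5p lie at or under 3.89.

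miR-30c-5p was also the only undetected member in the authors' deposited log2 table, with 1 probe. Its median there was 1.28, but HCM replicate 7 stood at 6.02 and healthy replicate 22 at 3.96, with the next array at 2.26. On the scanner files the probe had 15 spots on these arrays, with a mean of -0.57 in HCM replicate 7 and -0.48 in healthy replicate 22. On each of these arrays 1 spot was marked as an outlier by the scanner software, at 65.3 and 6.84 intensity units, and was left out of those means. Outlier spots and high deposited values did not go together throughout: healthy replicate 25 had 2 outlier spots, up to 95.2, and a deposited value of 0.84.

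The comparison of the groups asked whether the serum level of the 3 detected members differed between HCM and healthy cats. None differed past the threshold. With limma over all 543 tested names, 0 passed an adjusted p of 0.05 (0.00%), and 0 of the 3 members were among the 36 names (6.63%) with an unadjusted p under 0.05. On the authors' deposited log2 values limma called 5 of the 543 names (0.921%), and again 0 members. At an unadjusted p under 0.05 it called 41 (7.55%) on the deposited values and 44 (8.10%) with slide as a block, with 0 members among either. All 3 tested members had an adjusted p of 0.802.

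The mean of miR-30a-5p was higher in HCM, within the spread of the cats. Its scaled log2 signal had a lowest value of 6.58, a median of 8.27 and a highest value of 9.41 in HCM, and 6.76, 7.83 and 9.34 in healthy serum. The group ranges overlapped almost entirely, with HCM replicates 1 and 2 at the top and bottom of all arrays, and 8 of 11 HCM arrays lay above the healthy median. The mean was 8.17 ± 0.76 in HCM (SD, n = 11) and 7.79 ± 0.65 in healthy serum (SD, n = 12). The difference was 0.39 (SE 0.28, 95% interval -0.19 to 0.96, limma p 0.179), a 1.31-fold higher level. Without scaling between arrays it was 0.81 (1.75-fold, limma adjusted p 0.753), and on the authors' deposited values 0.55 (limma adjusted p 0.915).

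The mean of miR-30e-5p was lower in HCM, also within the spread. It ran from 6.65 through a median of 8.59 to 9.96 in HCM, and from 7.82 through 8.81 to 9.48 in healthy serum. HCM arrays were the more widely spread, with 3 below every healthy array and 1, replicate 10, above every healthy array. The mean was 8.38 ± 0.98 in HCM and 8.76 ± 0.49 in healthy cats. HCM minus healthy was -0.37 (SE 0.30, 95% interval -0.997 to 0.25, limma p 0.228). Without scaling between arrays the difference was 0.046, and on the authors' deposited values -0.21.

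miR-30d-5p differed least. It ran from 6.90 through 8.32 to 8.66 in HCM and from 7.87 through 8.32 to 8.89 in healthy serum, so that the medians coincided. Again 3 HCM arrays lay below every healthy array. The mean was 8.06 ± 0.61 in HCM and 8.24 ± 0.32 in healthy cats. HCM minus healthy was -0.19 (SE 0.20, 95% interval -0.60 to 0.22, limma p 0.356). Without scaling between arrays it was 0.23, and on the authors' deposited values -0.025. Without HCM replicate 12 it was -0.07, and without HCM replicate 2 -0.08.

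The HCM arrays at the bottom were the same for both names, namely replicates 2, 7 and 12. Replicate 2 read 6.996 for miR-30d-5p and 6.65 for miR-30e-5p, replicate 7 read 7.74 and 7.29, and replicate 12 read 6.90 and 7.26. For miR-30a-5p these arrays read 6.58, 8.32 and 7.61, of which only the first was below every healthy array. The difference in spread between the groups was not tested.

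**Figure D2:**
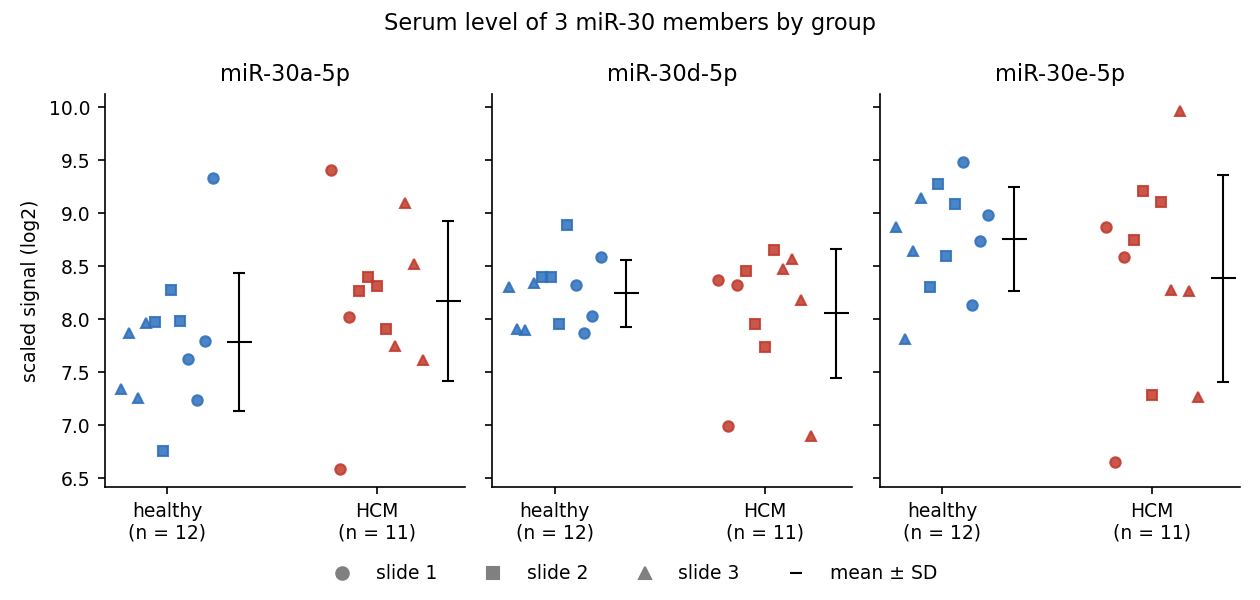
Scaled log2 signal (vertical axis) of miR-30a-5p, miR-30d-5p and miR-30e-5p in healthy and HCM serum, 1 point per cat with its slide as the symbol, and mean ± SD at the side. The groups overlap for each name, and 3 HCM arrays lie under all healthy arrays for miR-30d-5p and miR-30e-5p.

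Within slides 1, 2 and 3, HCM minus healthy was 0.01, 0.48 and 0.64 for miR-30a-5p. For miR-30d-5p it was -0.31, -0.21 and -0.09, and for miR-30e-5p -0.80, -0.23 and -0.18. miR-30d-5p and miR-30e-5p were lower in HCM on each slide, while miR-30a-5p was level on slide 1 and higher on the other two. Within slides 1, 2 and 3 the unadjusted limma p was 0.993, 0.195 and 0.1265 for miR-30a-5p. It was 0.458, 0.484 and 0.826 for miR-30d-5p, and 0.238, 0.623 and 0.756 for miR-30e-5p. None of these slide differences passed after adjustment. With slide as a block in limma the differences were 0.39, -0.20 and -0.38. Against all tested names, whose median difference was -0.10, miR-30a-5p lay above 93.9% of names, miR-30d-5p above 34.3% and miR-30e-5p above 8.47%. The median over the 3 tested members was -0.19, with 1 higher and 2 lower in HCM.

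The log2 ratios between the members were compared as well. A ratio of names on the same array does not depend on a common scale factor, and it is read only as a difference between cats, not as a ratio of amounts. That the differences of miR-30a-5p and miR-30e-5p had opposite signs was known before this ratio was chosen, so its p is not independent of that knowledge. The 3 ratios were tested by 2-sided permutation tests with 100000 resamples and adjusted over the 3. Ratios that share a member are not independent of each other.

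The ratio of miR-30a-5p to miR-30e-5p differed most between the groups. Its log2 value had a lowest value of -1.20, a median of -0.47 and a highest value of 1.03 in HCM, and -2.52, -1.02 and 0.35 in healthy serum. The ranges overlapped, while 10 of 11 HCM arrays lay above the healthy median and 2 above every healthy array. The mean was -0.21 ± 0.69 in HCM (SD, n = 11) and -0.97 ± 0.82 in healthy cats (SD, n = 12). HCM minus healthy was 0.76 (SE 0.31), or 1.69-fold. The permutation p was 0.0261 and the adjusted p 0.0574, which misses the threshold.

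The ratio of miR-30a-5p to miR-30d-5p followed it. It ran from -0.75 through 0.33 to 1.04 in HCM and from -1.64 through -0.53 to 0.75 in healthy serum, with 9 of 11 HCM arrays above the healthy median. The difference was 0.57 (SE 0.26, permutation p 0.0383, adjusted p 0.0574). The ratio of miR-30d-5p to miR-30e-5p differed by 0.19 (SE 0.21, permutation p 0.372). With the groups permuted within slides the adjusted p was 0.0607 for both ratios with miR-30a-5p and 0.397 for the remaining ratio. The calls hung on the setting: after quantile normalization both ratios with miR-30a-5p passed (0.79 and 0.66, adjusted permutation p 0.0353 each), as they did without any 1 of 6 arrays, HCM replicates 3, 8 and 9 and healthy replicates 15, 20 and 26. In the other direction, the adjusted permutation p of both was 0.109 without HCM replicate 1 and 0.106 without healthy replicate 19. Without slide 1, 2 or 3 it was 0.113, 0.122 and 0.285 for miR-30a-5p to miR-30e-5p, and 0.106, 0.166 and 0.285 for miR-30a-5p to miR-30d-5p.

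On slide 1 the log2 ratio of miR-30a-5p to miR-30e-5p was 0.54, -0.07 and -0.56 in HCM replicates 1, 2 and 3. The healthy replicates 22, 23, 25 and 26 of that slide gave -1.86, -0.90, -0.95 and 0.35. HCM arrays were thus mostly above the healthy ones there, apart from healthy replicate 26. On slide 2 the HCM replicates 5, 6, 7 and 8 gave -0.47, -0.81, 1.03 and -1.20, and the healthy replicates 18, 19, 20 and 21 gave -0.33, -2.52, -0.32 and -1.10. The groups were mixed on this slide, and its extremes were HCM replicate 7 and healthy replicate 19. On slide 3 the HCM replicates 9, 10, 11 and 12 gave -0.52, -0.86, 0.25 and 0.35, and the healthy replicates 14, 15, 16 and 17 gave -1.53, 0.05, -1.39 and -1.18. Here 3 of the 4 healthy arrays lay below every HCM array.

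The differences within slides 1, 2 and 3 were 0.81, 0.70 and 0.81 for this ratio, with exact permutation p of 0.257, 0.457 and 0.143, where the smallest p that 4 against 4 or 3 against 4 arrays allow is 0.0286. For miR-30a-5p to miR-30d-5p they were 0.32, 0.68 and 0.72. Both ratios kept their sign on each slide.

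**Figure D3:**
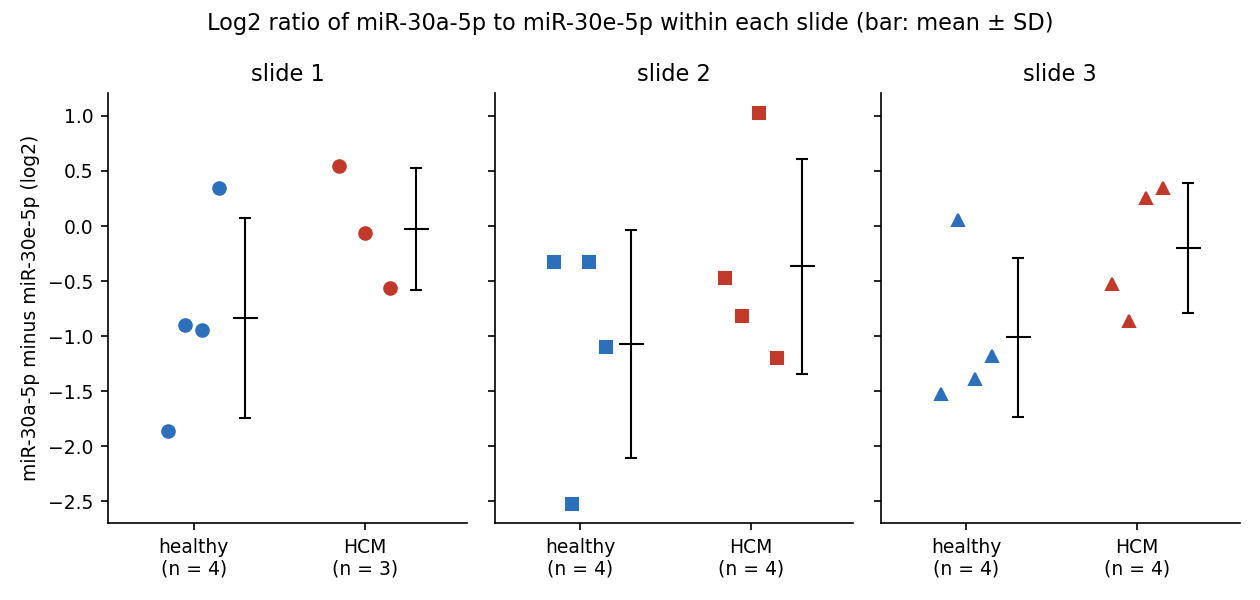
Log2 ratio of miR-30a-5p to miR-30e-5p (vertical axis) in healthy and HCM arrays of each slide, 1 point per cat, with mean ± SD beside the points. The HCM mean lies above the healthy mean by 0.81, 0.70 and 0.81 on slides 1, 2 and 3, and the points of the groups overlap on each.

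The probes of a name varied alike over arrays, though not at the same level. miR-30a-5p, miR-30d-5p and miR-30e-5p each had 2 probes with 15 spots apiece. The median coefficient of variation over the spots of a probe lay between 2.98% and 5.09%. The brighter probe exceeded the other by a mean log2 of 0.06 for miR-30a-5p, 0.15 for miR-30d-5p and 0.50 for miR-30e-5p. With the dimmer probe, HCM minus healthy of miR-30e-5p was -0.29. Between the probes of the same name the log2 difference varied over arrays with an SD of 0.10 for miR-30a-5p, 0.06 for miR-30d-5p and 0.17 for miR-30e-5p. Between names the corresponding SD was 0.84 for miR-30a-5p against miR-30e-5p, 0.67 for miR-30a-5p against miR-30d-5p and 0.49 for miR-30d-5p against miR-30e-5p. With 1 array per cat, the spread between names holds labelling and hybridisation as well as the cat, while probes of a name share all of these, so the part that lies between cats cannot be told apart. Over all arrays the ratio of miR-30a-5p to miR-30e-5p spanned 3.55 on the log2 scale, or 11.7-fold. With any of the 4 combinations of probes the group difference of this ratio lay between 0.64 and 0.76, with unadjusted permutation p between 0.0261 and 0.0381. For miR-30a-5p to miR-30d-5p it lay between 0.54 and 0.61, with unadjusted permutation p between 0.02475 and 0.0541. Whether these probes also bind other members of the family, whose sequences are alike, was not tested.

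The correlation over arrays asked whether the members rise and fall together from cat to cat. miR-30d-5p and miR-30e-5p did, with Pearson's r of 0.79 (permutation p 4e-05, adjusted p 0.00012 over 3 pairs, n = 23) and Spearman's rho of 0.64 (adjusted p 0.0042). Without HCM replicates 2 and 12, the arrays farthest from the median, r was 0.59. Within HCM and healthy arrays r was 0.82 and 0.61, and within slides 1, 2 and 3 it was 0.93, 0.57 and 0.78.

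miR-30a-5p was less tied to the others. Its r was 0.42 with miR-30d-5p (permutation p 0.0458, adjusted p 0.0688, rho 0.37, permutation p 0.0866, adjusted p 0.130) and 0.37 with miR-30e-5p (permutation p 0.0860, adjusted p 0.0860, rho 0.22, permutation p 0.301, adjusted p 0.301). Without HCM replicates 1 and 2 these were 0.24 and 0.16, so that they rest in part on those arrays. Within HCM and healthy arrays the r of miR-30a-5p was 0.62 and 0.32 with miR-30d-5p, and 0.72 and -0.015 with miR-30e-5p. The r over all arrays thus pools groups with unlike values, and their difference was not tested. The r of miR-30a-5p with miR-30d-5p was 0.82, -0.36 and 0.41 within slides 1, 2 and 3, and with miR-30e-5p 0.64, -0.41 and 0.49. These pairs therefore did not hold within slide 2. The probes of the same name correlated at 0.98 to 0.99 on the same arrays. All of these values share the array, its labelling and its scale factor. Without scaling the r values of the 3 pairs were between 0.72 and 0.88.

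**Figure D4:**
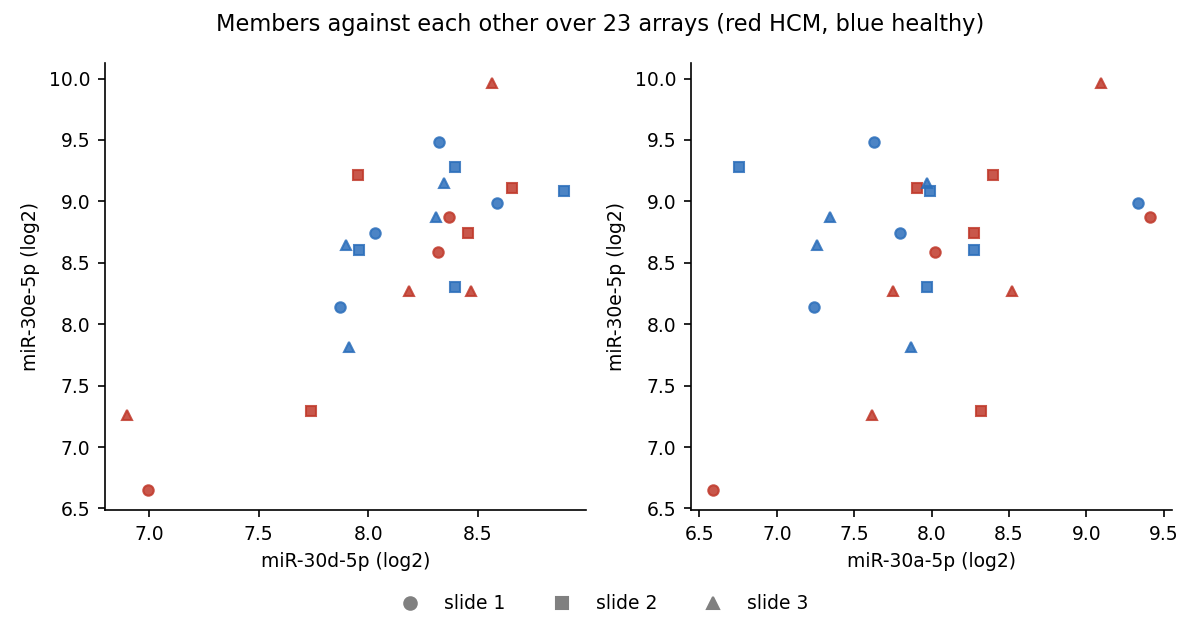
Scaled log2 signal of miR-30e-5p (vertical axes) against miR-30d-5p (left) and miR-30a-5p (right), 1 point per array, coloured by group with the slide as the symbol. The points follow a line on the left (r 0.79) and scatter on the right (r 0.37).

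The names that varied most like each member over the 23 arrays differed between the members. For miR-30a-5p these were miR-497-5p (r 0.70, rho 0.55), miR-145-5p, a miRNA of smooth muscle (r 0.69, rho 0.55), and miR-551b-5p (r 0.59, rho 0.54), while miR-30d-5p ranked 22 and miR-30e-5p ranked 37. Of these, miR-497-5p was detected on 19 of the 23 arrays and miR-551b-5p on 15. For miR-30d-5p the closest non-members were miR-181a-5p (r 0.77), miR-181b-5p (r 0.74) and miR-151a-3p (r 0.71), and miR-30e-5p was closer than any of them. These non-members also had r of 0.64, 0.74 and 0.60 with miR-30e-5p. For miR-30e-5p the closest non-members were miR-186-5p (r 0.88, rho 0.86), miR-140-3p (r 0.84, rho 0.80) and miR-210 (r 0.83, rho 0.76). All of these names were picked as the highest of all tested names and are given as a description.

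Red cell signal varied inversely with the ratio, short of the adjusted threshold. The red cell index, log2 miR-451a (a miRNA of red cells) minus log2 miR-23a-3p, is a usual measure of haemolysis in serum. The log2 ratio of miR-30a-5p to miR-30e-5p was lower where this index was higher, with r of -0.56 (permutation p 0.00483, adjusted p 0.0580 over 12 relations) and rho of -0.48 (permutation p 0.0209, adjusted p 0.250). Without healthy replicates 16 and 22, whose index was farthest from the median, r was -0.47. It was negative within each slide, at -0.82, -0.59 and -0.50, and within HCM and healthy arrays, at -0.36 and -0.60. The ratio had r of -0.67 with miR-486-5p, -0.50 with miR-451a and -0.46 with miR-144-3p. Outside the red cell list r was -0.58 with miR-181a-5p and -0.45 with miR-223-3p, so the relation was not particular to red cell names. The remaining tested list names lay between -0.35 (miR-30c-1-3p) and -0.005 (miR-133b). These r values were not tested.

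The index was -1.45 ± 1.32 in HCM and -0.58 ± 1.75 in healthy cats, so that HCM was lower by a value within the spread, at -0.87 (permutation p 0.197). Of the 4 red cell names, 3 were tested and all of these were above background, with a summed log2 level of 10.3 to 13.4 in HCM and 10.4 to 13.7 in healthy serum. The tested red cell names did not differ in 1 direction: HCM minus healthy was -0.90 for miR-451a, 0.41 for miR-144-3p and 0.07 for miR-486-5p (limma adjusted p 0.802, 0.802 and 0.982). The lower index in HCM was thus not shared by the other red cell names. The part of the red cell names in the group difference of the ratio was not tested. Among the remaining relations of the members and ratios to the index and to array brightness, the lowest adjusted p was 0.123, for miR-30a-5p with the index (r -0.48, permutation p 0.0206, rho -0.37, permutation p 0.0864, adjusted p 0.346). Array brightness had r of 0.28 with the ratio (permutation p 0.191, adjusted p 0.385, rho 0.24, permutation p 0.264, adjusted p 0.453).

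**Figure D5:**
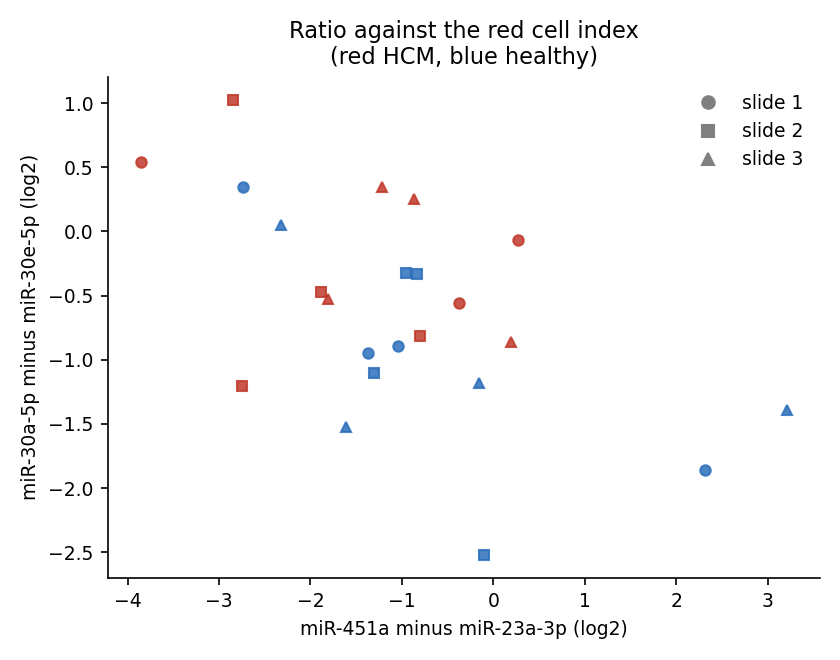
Log2 ratio of miR-30a-5p to miR-30e-5p (vertical axis) against the red cell index, log2 miR-451a minus log2 miR-23a-3p (horizontal axis), 1 point per array, coloured by group with the slide as the symbol. The ratio is lower where the index is higher (r -0.56), and 2 healthy arrays lie far to the right.

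The opposite arms of the hairpins were largely out of reach. Of the 6 names for miR-30 3p arms, 4 were detected on 0 arrays, among them miR-30a-3p, miR-30d-3p and miR-30e-3p. The tested ones were those of the hairpins of miR-30c, miR-30c-1-3p on 19 arrays and miR-30c-2-3p on 22, while miR-30c-5p itself was detected on 0. miR-30c-1-3p read 3.43 ± 0.43 in HCM and 3.68 ± 0.54 in healthy cats, with HCM minus healthy at -0.24 (limma adjusted p 0.802). miR-30c-2-3p read 4.17 ± 0.29 and 4.25 ± 0.37, a difference of -0.09 (limma adjusted p 0.885). Both means were lower in HCM, and 0 of 2 passed.

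The miRNAs that repress CTGF and other matrix genes alongside miR-30 gave no call either. Of 8 such names 5 were tested, 1 with a positive and 4 with negative differences, and 0 passed. Their median difference was -0.42, beside -0.10 over all tested names. miR-133b, the muscle miRNA, differed by 0.55 (limma adjusted p 0.813) and was at the floor on 13 of 23 arrays, with a highest value of 9.62 in HCM and 5.19 in healthy serum. miR-133a was detected on 1 array. The miR-29 members, which repress collagens, were at -0.56 for miR-29a-3p, -0.91 for miR-29b-3p and -0.42 for miR-29c-3p (limma adjusted p 0.802 each). Of these, miR-29b-3p was detected on 14 arrays, and 9 of the 23 arrays held only the floor value for it. Its HCM median was the floor itself (2.45), so the size of its difference depends in part on the floor. No array held the floor value for miR-29a-3p or miR-29c-3p. miR-19b-3p differed by -0.05 (limma adjusted p 0.991), with the floor value on 12 arrays.

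The other marker lists gave 0 calls as well. Among the platelet names 2 of 4 were tested, miR-223-3p at -0.56 and miR-24-3p at 0.29, at the floor on 2 and 4 arrays. Among the leukocyte names 2 of 5 were tested, miR-181a-5p at -0.37 and miR-155-5p at -0.15. miR-155-5p was at the floor on 18 of 23 arrays, and miR-122-5p of the liver list on 12. In the liver list 1 of 4 was tested, miR-122-5p at 0.02, and among the kidney and epithelium names 1 of 5, miR-205-5p at -0.90 (limma adjusted p 0.516).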

How the data were processed

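Spots were read as background-subtracted intensity on a linear scale, with flags of other kinds per spot, per the file headers, using Agilent Feature Extraction 10.7.3.1, per the submitters' processing notes. The authors' deposited table holds log2 values for 1758 probes. They were checked against the scanner signals (r per array 0.987 to 1.00 above an intensity of 8). Their column medians were 2.98 to 3.31, and their normalization is not given in the sources used here.

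Spots with an outlier flag were dropped before a probe's spots were averaged. Each array was divided by its 75th percentile over 508 probes, those with detection on every array, multiplied by the geometric mean of these percentiles, floored at 5.45 (the 5th percentile of detected signals) and log2 transformed, a floor of 2.45. Each name was represented by its brightest probe and tested when detected on at least 6 arrays (543 names). Groups came from the sample titles. limma 3.58.1 in R 4.3.3 (2-sided, Benjamini-Hochberg over the tested names) compared the groups. Ratios and correlations used permutation tests in Python 3.11.15 with numpy 2.4.6, and exact permutation within slides. Normexp, 1 of the alternatives, used median spot and local background signals, since the files used hold no mean signal column. The scripts were tested on simulated data. The number of arrays limits the precision.

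The members and lists were chosen with earlier results of these data known. All members were named, with the tested names of each list and the 3 names most correlated with each tested member. The second probe of each name, the deposited values permuted within slides and leaving out a slide were added after seeing the data.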

Additional observations from a re-analysis of the deposited data

How the results depend on the processing

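No paired analysis was possible because the groups share no replicate numbers. The count of names past an adjusted p of 0.05 was 0 in the main values, 5 on the deposited log2 values, 1 with a lower floor, 1 on the total gene signal and 2 within slide 2, with 0 members among them, and 0 in each of the 23 fits that left out 1 array. Without scaling between arrays miR-30d-5p was at 0.23 and miR-30e-5p at 0.046, each reversed in sign. Scaling takes the brightness of an array, the log2 of its scaling percentile, off its log2 values. Brightness was 8.22 ± 0.49 in HCM and 7.80 ± 0.91 in healthy arrays (SD), with HCM minus healthy at 0.42 (permutation p 0.188). Without scaling this gap is added to the difference of each member. Why the HCM arrays were brighter on average was not tested. Leaving out 1 array moved the difference of miR-30a-5p between 0.26 and 0.55, of miR-30d-5p between -0.25 and -0.07 and of miR-30e-5p between -0.53 and -0.20.

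The ratio of miR-30a-5p to miR-30e-5p lay between 0.57 (normexp) and 0.81 over 16 alternatives, with adjusted permutation p from 0.0353 to 0.686. These include fits with fewer arrays, and the 0.686 was that within slide 2, with 4 arrays against 4. The lower and higher floor could not change the ratio, since these members lay above both floors on every array. Quantile normalization passed the threshold, with 0.79 for this ratio and 0.66 for miR-30a-5p to miR-30d-5p (adjusted p 0.0353 each). Leaving out 1 array gave 0.62 to 0.88 for miR-30a-5p to miR-30e-5p, 0.47 to 0.68 for miR-30a-5p to miR-30d-5p and 0.11 to 0.29 for miR-30d-5p to miR-30e-5p. The first of these passed in 6 of 23 fits, without HCM replicates 3 (0.80), 8 (0.86) or 9 (0.79), or healthy replicates 15 (0.85), 20 (0.82) or 26 (0.88). miR-30a-5p to miR-30d-5p passed in the same fits, at 0.62, 0.66, 0.66, 0.61, 0.64 and 0.68. Both ratios hold the same miR-30a-5p values and were adjusted together, so passing in the same fits is not a separate result.

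Pearson's r of miR-30a-5p passed with miR-30d-5p and miR-30e-5p on the deposited values (0.57 and 0.46), without scaling (0.82 and 0.72), with the second probes (0.44 and 0.42) and with group and slide means removed (0.52 and 0.47). Without scaling all names on an array also share its brightness, so those r values do not single out these pairs. Spearman's rho with miR-30e-5p did not pass on the deposited values (0.32, permutation adjusted p 0.140), and with the second probes rho passed for neither pair (0.32 and 0.29, permutation adjusted p 0.172 each). Signal over background limits miR-30b-5p and miR-30c-5p, which were not well above background.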
